A study of Mus musculus with 12 samples.

Results

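Marker genes of recruited and lipid-associated macrophages were followed in the livers of Apoe knockout mice given either an Rspo2-AAV or a Gfp-AAV vector. An adeno-associated virus (AAV) is a gene delivery vector, and Rspo2 encodes R-spondin 2, a secreted protein that strengthens Wnt signalling. The genes, chosen by symbol, were Trem2, Gpnmb, Spp1, Lgals3, Fabp5, Cd9, Itgax, Itgam, Ccr2 and Ms4a7, 10 of the 54532 genes in the table. All 12 liver samples, 6 control and 6 Rspo2-AAV, share the Apoe knockout genotype, so the groups differ by the label only in the vector. The samples are numbered 1 to 6 in the control group and 1, 2, 4, 5, 6 and 7 in the Rspo2-AAV group. The strain, sex, age, diet, vector promoter and time after injection were not found in the labels or design text, which also do not say that each sample is a separate animal. The p-values therefore measure the spread between these samples. The series title places its question in hepatic fat storage, and no label names macrophages.

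Macrophages of the liver have more than one origin. Kupffer cells are resident and long-lived, while monocytes that enter from the blood through the chemokine receptor Ccr2 can become recruited macrophages. In fatty liver and in atherosclerotic plaques, some macrophages take up lipid and switch on a shared programme with the lipid receptor Trem2 at its centre, together with lysosomal, secreted and fatty acid binding proteins. Several of these genes are not private to macrophages: Spp1 is also made by bile duct cells, Cd9 by platelets and endothelium, and Fabp5 and Lgals3 by many cell types.

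Levels are given in FPKM, the deposited unit, in which reads are divided by the length of the gene and the size of the library. The reads recovered from these values numbered 14295644 in the smallest library and 22195576 in the largest. Some libraries stood apart. The female-specific transcript Xist reached 42.0 FPKM in control 3, and 28.0 and 5.57 FPKM in the Rspo2-AAV libraries 1 and 2, but stayed below 0.02 FPKM in the rest. Mitochondrial transcripts supplied 10.5% of the reads of Rspo2-AAV 2 and 3.53% to 5.89% of those of the others. Pancreatic acinar transcripts supplied 7.70% of reads in Rspo2-AAV 4, 0.692% in number 5 of that group and under 0.1% elsewhere. Scd1, a lipogenic enzyme, was at 331 to 541 FPKM in the samples numbered 1 to 3 of either group, and at 2457 to 3662 FPKM in those numbered 4 to 7. These number sets come from that measurement and no label calls them a batch. Rspo2 transcript was at 0 in the 6 control libraries and at 49.9 to 573 FPKM in the 6 Rspo2-AAV libraries. Hepatocyte markers summed to at least 24946 FPKM in every library.

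The 10 genes spanned a wide range of levels per length. Over all 12 libraries Lgals3 (86.0% of tested genes were lower) and Spp1 (87.0%) stood highest, followed by Cd9, Gpnmb and Fabp5, then Trem2. Itgax, Ms4a7 and Ccr2 were each near 1 FPKM or below, and Itgam was lowest. In the control group the mean was 27.8 FPKM for Lgals3 and 22.4 for Spp1, and their library ranges overlapped. The ranges of Itgax, Ms4a7 and Ccr2 overlapped too. Itgam, with a mean under 0.5 FPKM, was left out of the fit across genes, so 9 of the 10 were tested.

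Of the 9 tested genes, 1 rose and 1 fell in the Rspo2-AAV livers: Fabp5 was higher and Trem2 lower (limma, adjusted p under 0.05). Across all 13447 tested genes, 2.55% were called higher and 2.65% lower. The 9 log2 changes had a median of -0.19, beside 0.00 for all tested genes, with 3 positive and 6 negative. For none of the 10 genes did all 6 Rspo2-AAV values lie outside the control range, a separation seen for 3.24% of tested genes. As these are bulk samples, fewer cells of a type and less RNA per cell cannot be told apart.

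**Figure D1:**
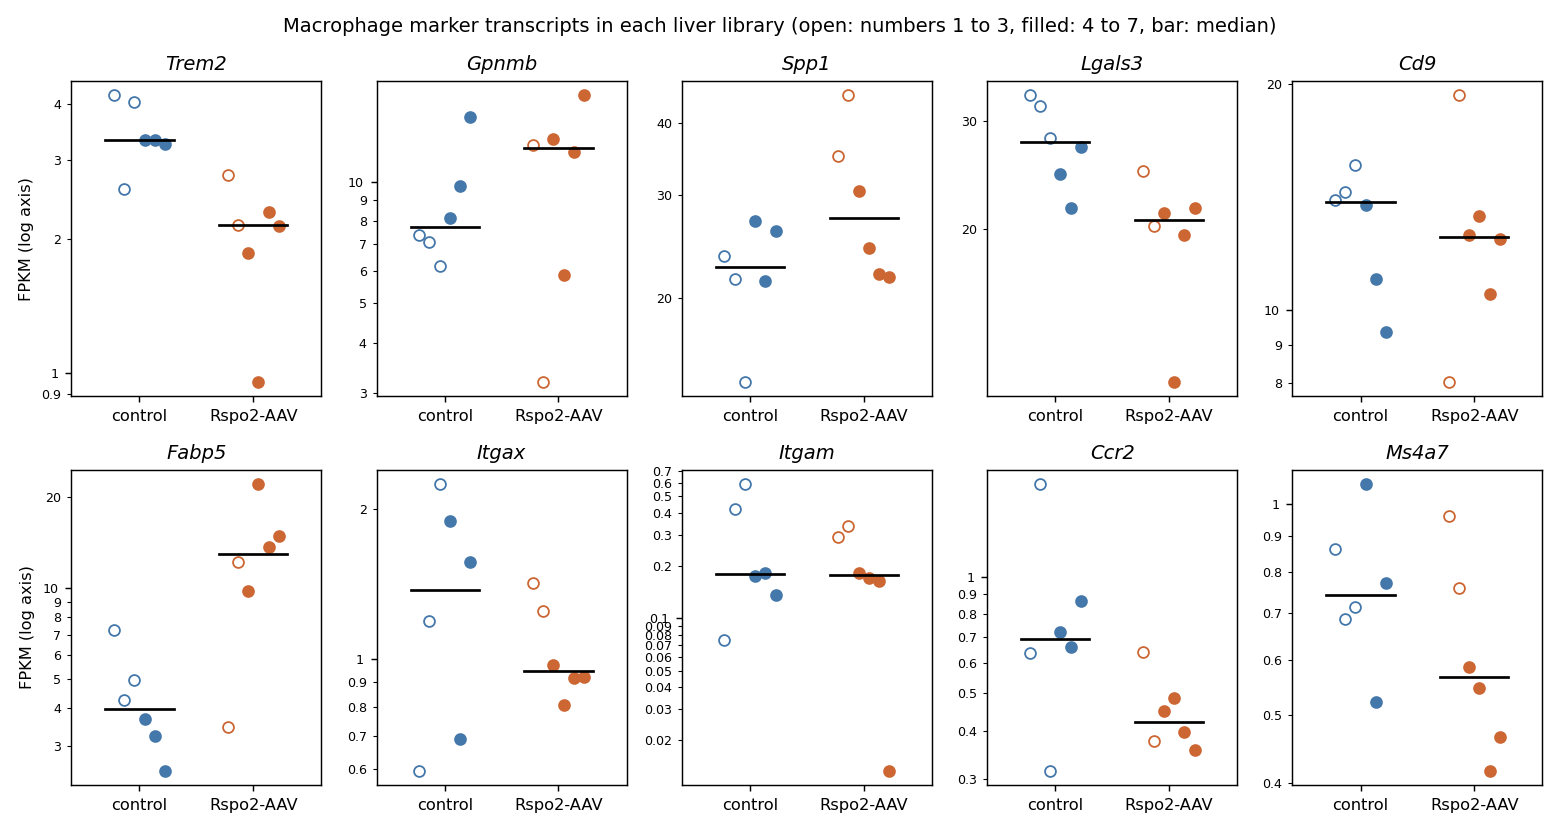
FPKM of each gene on a log axis in the 6 control and 6 Rspo2-AAV libraries, 1 point per library, with open points for numbers 1 to 3, filled points for numbers 4 to 7 and a bar at the group median. 5 of 6 Rspo2-AAV points lie below all control points for Trem2 and 5 of 6 lie above them for Fabp5, while the groups interleave for most other genes.

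Promoter sequence is shown for 4 of the genes: Trem2, which fell, Lgals3, which varied most closely with it within the groups, and the neighbours Itgam and Itgax, which also varied together. Of the 10 genes, 9 matched an entry in the RefSeq table (GRCm38.p6), with 11 start sites between them, and Fabp5 did not. Each run below is the 250 bases before the start site, read 5′ to 3′ on the gene's strand. Capitals mark a match to TGANTCA, a loose form of the AP-1 motif in which N stands for any base. The RefSeq start of Lgals3 lies inside the span of the gene in the deposited table.
Trem2, chr17:48346151-48346400, plus strand: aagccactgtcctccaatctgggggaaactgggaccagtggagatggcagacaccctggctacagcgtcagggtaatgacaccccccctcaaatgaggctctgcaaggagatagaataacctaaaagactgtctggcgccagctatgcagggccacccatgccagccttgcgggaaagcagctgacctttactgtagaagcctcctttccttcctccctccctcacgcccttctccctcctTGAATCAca
Lgals3, chr14:47373610-47373859, plus strand: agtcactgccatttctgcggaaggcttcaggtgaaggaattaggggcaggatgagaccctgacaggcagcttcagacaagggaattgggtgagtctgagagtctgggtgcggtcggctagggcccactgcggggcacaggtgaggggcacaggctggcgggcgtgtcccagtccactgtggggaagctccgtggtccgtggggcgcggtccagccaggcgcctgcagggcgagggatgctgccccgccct
Itgam, chr7:128062390-128062639, plus strand: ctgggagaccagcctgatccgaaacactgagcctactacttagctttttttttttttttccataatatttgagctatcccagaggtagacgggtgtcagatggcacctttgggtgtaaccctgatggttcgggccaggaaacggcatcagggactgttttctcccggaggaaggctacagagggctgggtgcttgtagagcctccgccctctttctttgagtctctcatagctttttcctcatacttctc
Itgax, chr7:128129300-128129549, plus strand: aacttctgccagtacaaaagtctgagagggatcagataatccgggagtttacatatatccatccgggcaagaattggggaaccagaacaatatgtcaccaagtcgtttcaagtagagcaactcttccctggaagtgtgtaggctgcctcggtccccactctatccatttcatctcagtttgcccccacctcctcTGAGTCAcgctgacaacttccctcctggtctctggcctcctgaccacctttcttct
The match in Trem2 (TGAATCA) begins 9 bases before the start site and that in Itgax (TGAGTCA) 56 bases before it. That of Ms4a7, not shown, reads TGATTCA. Over the 11 windows, TGANTCA was found on either strand in those of 3 genes (Trem2, Itgax and 1 of the start sites of Ms4a7), and in 6.75% of all 32851 windows of this length. GAGGAAGT, the motif of the myeloid factor PU.1, was in the window of Spp1 and in 2.44% of all windows, and CACGTG, an E-box, in none of the 11 and in 6.02% of all. A match describes the letters and not a bound site.

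Trem2 encodes a cell surface receptor for lipids and lipoproteins on macrophages. Its gene (ENSMUSG00000023992, GRCm38 chromosome 17, 48346401 to 48354147, plus strand, protein coding) was at 4.18, 2.59, 4.04, 3.32, 3.32 and 3.25 FPKM in controls 1 to 6. In the Rspo2-AAV libraries 1, 2, 4, 5, 6 and 7 it was at 2.77, 2.15, 1.85, 0.957, 2.29 and 2.14 FPKM. Rspo2-AAV 1 was the only library of its group above the lowest control, control 2. Group means were 3.45 ± 0.583 and 2.03 ± 0.604 FPKM (SD, 6 libraries each), a mean 1.70 times higher in the control group, from 72 to 365 reads per library. The log2 change was -0.67 ± 0.18 (SE, limma adjusted p = 0.0457), and the exact two-sided permutation test over 924 splits gave p = 0.00433. The limma call lay close to its threshold and was lost in 10 of 12 fits that left out 1 library, where the adjusted p ran from 0.0267 to 0.0840 and the log2 change from -0.76 to -0.52. It was also lost with a pseudocount of 0.1 and with no filter on low values (adjusted p = 0.0501 and 0.102). The same held with TPM scaling, with limma-voom and with a replicate block (adjusted p = 0.115, 0.0576 and 0.123). The replicate block was fitted only to numbers present in both groups, so control 3 and Rspo2-AAV 7 were left out of it.

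Fabp5 encodes a small cytosolic protein that carries fatty acids. Its gene (ENSMUSG00000027533, chromosome 3, 10012548 to 10016607, plus strand) was at 7.23, 4.26, 4.94, 3.68, 3.24 and 2.49 FPKM in controls 1 to 6, and at 3.48, 12.2, 9.79, 22.1, 13.7 and 14.9 FPKM in Rspo2-AAV 1, 2, 4, 5, 6 and 7. Rspo2-AAV 1 lay inside the control range and the other 5 above it, with number 5 the highest. Means were 4.31 ± 1.66 and 12.7 ± 6.13 FPKM (SD, 6 libraries each), a 2.94-fold rise of the mean, and the log2 change was 1.35 ± 0.35 (SE, limma adjusted p = 0.0465; exact permutation p = 0.0130). The call was lost in 9 of 12 fits that left out 1 library (adjusted p from 0.00380 to 0.105, log2 change from 1.16 to 1.66). It was lost as well with no filter on low values, with a replicate block and when the number sets entered as a term (adjusted p = 0.106, 0.202 and 0.0549), and without Rspo2-AAV 4 and 5, the libraries with most acinar reads (log2 change 1.16, adjusted p = 0.160). In numbers 4 to 7 alone the log2 change of Fabp5 was 2.06 (adjusted p = 0.00419), and in numbers 1 to 3 alone it was 0.28 (adjusted p = 0.930). The difference between these sets was 1.78 ± 0.57 and did not pass (adjusted p = 0.292). Within numbers 4 to 7, where 6.34% of tested genes were called higher and 6.92% lower, Fabp5 was the only one of the 10 genes called and Trem2 had -0.76 (adjusted p = 0.0612).

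Reads of Fabp5 could be shared with copies of its transcript. A search of the GENCODE M21 transcripts found 5 processed pseudogenes at least 90% identical to it over at least 200 bases. Gm6166, 98.3% identical over 409 bases, had a mean of 0.732 ± 0.713 FPKM in the controls and 1.09 ± 0.682 in the Rspo2-AAV libraries (SD, 6 libraries each) and was not called (log2 change 0.43 ± 0.38, adjusted p = 0.556). The other 4 had means of at most 0.0645 FPKM. How reads that fit several places were counted is not stated in the labels, so the Fabp5 level carries that uncertainty.

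**Figure D2:**
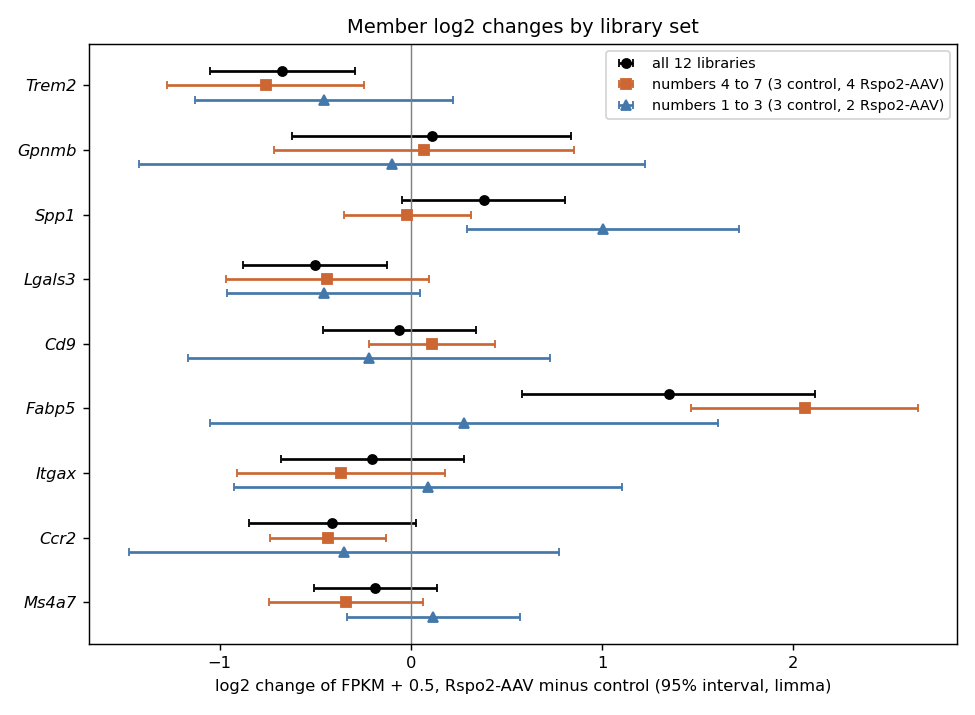
Log2 change of FPKM + 0.5, Rspo2-AAV minus control, for the 9 tested genes in all 12 libraries, in numbers 4 to 7 and in numbers 1 to 3, with 95% limma intervals. Trem2 was at -0.67, -0.76 and -0.46, and Fabp5 at 1.35, 2.06 and 0.28, in these sets.

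Among the secreted and lysosomal products of the programme, Lgals3, Spp1 and Gpnmb, limma called no gene in either direction. Lgals3, which encodes the lectin galectin-3 (ENSMUSG00000050335, chromosome 14, 47367751 to 47386160, plus strand), ran from 21.6 to 33.1 FPKM in the controls (median 27.7) and from 11.3 to 24.9 FPKM in the Rspo2-AAV libraries (median 20.7). In all, 4 of 6 Rspo2-AAV libraries lay below all controls, and number 5 was the lowest. The log2 change was -0.50 ± 0.17 and was not called (limma adjusted p = 0.115), while the unadjusted exact permutation p was 0.0108. The permutation p of Lgals3 passed 0.05 in each fit that left out 1 library, but was 0.0649 with TPM scaling, 0.143 in numbers 4 to 7 and 0.10 in numbers 1 to 3, the smallest that 3 against 2 samples allow. Of the 10 genes, 3 had an unadjusted exact permutation p under 0.05 (Trem2, Lgals3 and Fabp5), beside 20.6% of all tested genes.

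Spp1 encodes osteopontin, a secreted matrix and signalling protein (ENSMUSG00000029304, chromosome 5, 104435118 to 104441050, plus strand). It ran from 14.4 to 27.2 FPKM in the controls (median 22.6) and from 21.7 to 44.6 FPKM in the Rspo2-AAV libraries (median 27.5). Rspo2-AAV 1, 2 and 4 lay above all controls, and numbers 5, 6 and 7 inside their range. The log2 change was 0.38 ± 0.20 and was not called (adjusted p = 0.293). In numbers 1 to 3 the Rspo2-AAV values, 35.01 and 44.6 FPKM, lay above the control values of 14.4 to 23.6 FPKM (log2 change 1.01, adjusted p = 0.554). In numbers 4 to 7 the ranges overlapped (21.4 to 27.2 and 21.7 to 30.6 FPKM, log2 change -0.02). The difference between the sets was -1.02 ± 0.30 and did not pass (adjusted p = 0.259). Bile duct cells also make osteopontin. Their marker list summed to 11.05 to 14.3 FPKM in the controls and 10.5 to 16.1 FPKM in the Rspo2-AAV libraries. Of its 7 tested genes, 0 were called by limma or limma-voom and 2 had an unadjusted limma p under 0.05. By exact permutation, 20.6% of all tested genes had an unadjusted p under 0.05.

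Gpnmb encodes a membrane glycoprotein of lysosome-rich cells (ENSMUSG00000029816, chromosome 6, 49036546 to 49070929, plus strand). Its spread within the groups was wide, from 6.20 to 14.4 FPKM in the controls (median 7.75) and from 3.20 to 16.3 FPKM in the Rspo2-AAV libraries (median 12.1). Rspo2-AAV 2 and 5 lay below all controls and number 7 above them. The log2 change was 0.11 with a 95% interval from -0.62 to 0.84 (adjusted p = 0.892), and its sign turned without Rspo2-AAV 7 (-0.05). The low value of Rspo2-AAV 2 accompanied its high mitochondrial share of reads, and without that library the log2 change was 0.39 (adjusted p = 0.389); the part of this in the result was not tested.

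Cd9, a tetraspanin of the cell membrane (ENSMUSG00000030342, chromosome 6, 125460266 to 125494791, minus strand), had the smallest fitted change. It ran from 9.34 to 15.6 FPKM in the controls and from 8.03 to 19.3 FPKM in the Rspo2-AAV libraries, with a log2 change of -0.06 and a 95% interval from -0.46 to 0.34 (adjusted p = 0.891). Its 2 extremes were both Rspo2-AAV libraries, number 1 the lowest and number 2 the highest. Platelet markers, among the other cells that make Cd9, summed to 15.3 FPKM in Rspo2-AAV 2 and to a median of 3.54 in that group and 3.09 in the controls. The antisense gene Gm28809 and the gene Gm26728 overlap Cd9 on the other strand, and both had means under 0.1 FPKM.

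The 2 integrin genes encode the alpha chains CD11c (Itgax) and CD11b (Itgam), which pair with the beta chain Itgb2 and lie next to each other on the plus strand of chromosome 7, 11056 bases apart. Itgax (ENSMUSG00000030789, 128129547 to 128150657) ran from 0.597 to 2.25 FPKM in the controls and from 0.808 to 1.42 FPKM in the Rspo2-AAV libraries. All 6 Rspo2-AAV values fell inside the control range, and the log2 change of -0.20 ± 0.22 was not called (adjusted p = 0.653). Single controls moved it: it was -0.34 without control 1, -0.31 without control 5, -0.11 without control 4 and -0.07 without control 3, and was called in none of these fits. Itgam (ENSMUSG00000030786, 128062640 to 128118491) ran from 0.0751 to 0.588 FPKM in the controls and from 0.0133 to 0.337 FPKM in the Rspo2-AAV libraries, which correspond to 5 to 54 and 1 to 37 reads. With so few reads no difference was detected (exact permutation p = 0.519). A protein-coding gene model, Gm49368, overlaps Itgam on the same strand and shares 3454 bases with it at 99.9% identity, so the Itgam level is uncertain. Itgb2, the partner chain, was at 12.2 ± 4.00 and 7.92 ± 1.88 FPKM (SD, 6 libraries each; log2 change -0.56, adjusted p = 0.140).

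Ccr2, the receptor that draws monocytes out of the blood (ENSMUSG00000049103, chromosome 9, 124101950 to 124113557, plus strand), ran from 0.316 to 1.73 FPKM in the controls (median 0.688) and from 0.356 to 0.639 FPKM in the Rspo2-AAV libraries (median 0.423). Every Rspo2-AAV value lay inside the control range, whose ends were control 2 (high) and control 3 (low). The log2 change was -0.41 ± 0.20 (adjusted p = 0.260; exact permutation p = 0.0519). It was -0.25 without control 2 and -0.54 without control 3, with adjusted p of 0.463 and 0.105. The permutation p fell under 0.05 in 2 of 12 fits that left out 1 library (without control 3, 0.00649, and without Rspo2-AAV 1, 0.0411). In the other 10 it ran from 0.0541 to 0.0996. It was under 0.05 with a pseudocount of 1 (0.0476) and without control 3 and Rspo2-AAV 1 and 2 (0.0159). In numbers 4 to 7 it was 0.0286, the smallest that 3 against 4 samples allow. It was 0.0584 with a pseudocount of 0.1, 0.119 with TPM scaling, 0.124 without Rspo2-AAV 4 and 5, and 0.9 in numbers 1 to 3. Ms4a7, a membrane protein found on recruited more than on resident liver macrophages (ENSMUSG00000024672, chromosome 19, 11321039 to 11336146, minus strand), ran from 0.522 to 1.07 FPKM and from 0.416 to 0.961 FPKM. Numbers 6 and 7 of the Rspo2-AAV group lay below all controls, and the log2 change of -0.19 ± 0.15 was not called (adjusted p = 0.514). Neither of these markers of recruited cells was called in either direction.

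Within the groups the 10 genes did not vary as a block. After each group's mean was subtracted from the log2 values, the 45 pairs of genes had a median Pearson r of 0.05 over the 12 libraries, and 26 pairs were positive. The highest were Trem2 with Lgals3 (0.75), Spp1 with Ms4a7 (0.69), Cd9 with Fabp5 (0.65) and Itgax with Itgam (0.58). The lowest was Gpnmb with Cd9 (-0.80). These values describe the same 12 libraries, share their scaling, and were not tested. Rspo2-AAV 5 was the lowest of all 12 libraries for both Trem2 and Lgals3.

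**Figure D3:**
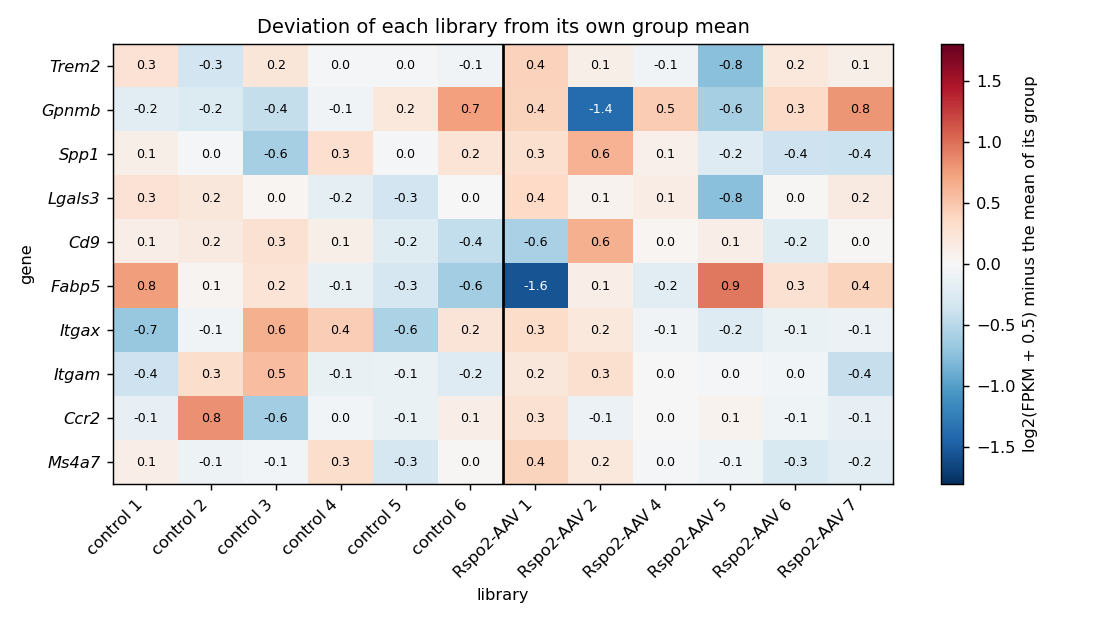
Log2(FPKM + 0.5) of each gene minus the mean of its own group, for the 6 control libraries on the left and the 6 Rspo2-AAV libraries on the right of the line; red is above and blue below the group mean. Rspo2-AAV 5 is low for Trem2 and Lgals3 and high for Fabp5, Rspo2-AAV 1 is low for Fabp5 and Rspo2-AAV 2 for Gpnmb.

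By the same measure, the most similar of 10103 other protein-coding genes whose mean reached 1 FPKM were named for each gene. For Trem2 they were Tfam, 1810030O07Rik and Them4 (r from 0.83 to 0.86), and for Lgals3 they were 1810030O07Rik, Them4 and Hcst (0.86 to 0.90). For Gpnmb they were Fbxo34, Pon2 and Gm4756 (0.92), for Spp1 Itm2b, Gabarapl1 and Acaa1b (0.91 to 0.94), for Cd9 C9orf72, Xrcc4 and Irf2bp2 (0.85 to 0.89), and for Fabp5 Rad9a, Mmachc and Il4ra (0.94). For Itgax they were Nckap1l, Sh2b3 and Bcl2l11 (0.93 to 0.96), for Itgam Csf3r, Klra2 and Pilrb2 (0.91 to 0.94), for Ccr2 Pdlim7, Slc12a4 and Lrat (0.81 to 0.89), and for Ms4a7 Mcm3, 3110001I22Rik and Vegfc (0.91 to 0.93). Hcst, an adaptor of activating immune receptors, Nckap1l, a leukocyte cytoskeleton gene, and Csf3r, the receptor of granulocyte colony-stimulating factor, are genes of blood cells. These were the highest of many values over 12 libraries and carry no test.

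Trem2 signals through adaptor proteins to the kinase Syk and phospholipase Plcg2. Of 12 genes of this chain, 9 were tested, 0 were called higher and 1 lower, and all 9 log2 changes were negative (median -0.28, beside 0.00 for all tested genes). The lower gene was Hcst, at 1.65 ± 0.371 and 0.891 ± 0.300 FPKM (SD, 6 libraries each; log2 change -0.63 ± 0.17, adjusted p = 0.0495), whose call was lost in 10 of 12 fits that left out 1 library (adjusted p from 0.0243 to 0.120) and in 8 of 11 other alternatives, limma-voom among them, which called 0 of the 9. Tyrobp, the adaptor that Trem2 needs to signal, was at 50.1 ± 12.6 and 34.2 ± 10.6 FPKM (log2 change -0.55 ± 0.22) and was not called (adjusted p = 0.157).

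Among 30 tested genes named with Trem2 in lipid-laden macrophages (lysosomal enzymes, lipid transporters and ferritins), 2 were called higher and 1 lower, with 24 of 30 log2 changes negative and a median of -0.26. Atp6v0d2, a subunit of the lysosomal proton pump, rose from 1.94 ± 1.18 to 6.64 ± 3.65 FPKM (log2 change 1.53 ± 0.35, adjusted p = 0.0270). Mmp14, a membrane-bound matrix metalloproteinase, rose from 7.25 ± 3.74 to 14.5 ± 3.81 FPKM (1.04 ± 0.27, adjusted p = 0.0446). Cd68, a lysosomal protein used as a macrophage marker, fell from 29.5 ± 4.83 to 19.8 ± 3.50 FPKM (-0.56 ± 0.14, adjusted p = 0.0368; SD, 6 libraries each). Calls were lost in 5 of 12 fits that left out 1 library for Atp6v0d2, in 11 of 12 for Mmp14 and in 8 of 12 for Cd68 (highest adjusted p 0.0689, 0.0984 and 0.0913). They were lost in 4, 4 and 5 of 11 other alternatives, and in numbers 1 to 3.

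Of 22 tested genes of monocytes and early recruited macrophages, 0 were called higher and 3 lower, with 18 negative log2 changes and a median of -0.43. Ccl9, a chemokine of myeloid cells, fell from 17.1 ± 4.43 to 6.74 ± 2.66 FPKM (SD, 6 libraries each; log2 change -1.31 ± 0.24, adjusted p = 0.00846), with every Rspo2-AAV value under every control value. Irf5, a transcription factor of inflammatory macrophages, fell by 0.55 ± 0.11 and Treml4, a receptor of the Trem family, by 0.95 ± 0.22 on the log2 scale (adjusted p = 0.0170 and 0.0307). Ccl9 and Irf5 remained called in all 12 fits that left out 1 library, and Treml4 in 5. In 11 other alternatives Ccl9 lost its call in 0, Irf5 in 4 and Treml4 in 4 (highest adjusted p 0.0487, 0.171 and 0.134), and all 3 lost it in numbers 1 to 3.

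Chemokines and growth factors that draw or sustain monocytes had 0 of 11 tested genes called by limma or limma-voom, with a median log2 change of -0.21. Of the 11, 2 had an unadjusted limma p under 0.05, where exact permutation gave 20.6% of all tested genes. The sum of the list ran from 71.3 to 84.5 FPKM in the controls and from 50.9 to 65.3 FPKM in the Rspo2-AAV libraries, without overlap. The 2 with the highest means were Cxcl12, at 40.5 and 32.1 FPKM (log2 change -0.30, adjusted p = 0.342), and Cxcl1, at 13.5 and 6.93 FPKM (-0.58, adjusted p = 0.464). Each of them overlapped between control and Rspo2-AAV: Cxcl12 at 26.0 to 51.3 and 26.5 to 42.0 FPKM, Cxcl1 at 5.11 to 31.9 and 4.12 to 9.27 FPKM. The sum was not tested. Of 16 tested integrins, partners and osteopontin receptors, 1 was lower, Itgb5 (-0.42 ± 0.09, adjusted p = 0.0205, lost in 2 of 12 fits that left out 1 library and in 4 of 11 other alternatives). Among 22 tested relatives of the 10 genes, 1 was lower: Lgals3bp, which encodes a secreted protein that binds galectin-3, fell from 59.0 ± 8.79 to 33.1 ± 5.20 FPKM (SD, 6 libraries each; -0.82 ± 0.13, adjusted p = 0.00478). Its 6 Rspo2-AAV values all lay under the 6 control values, and the call remained in all 12 fits that left out 1 library but not with TPM scaling or the replicate block (adjusted p = 0.0667 and 0.0735). Of 21 tested transcription factors of macrophage identity and of lysosomal genes, 1 was higher, the stress-induced Atf3 (1.23 ± 0.22, adjusted p = 0.00749, lost with the replicate block at 0.0739), with a list median of -0.05.

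**Figure D4:**
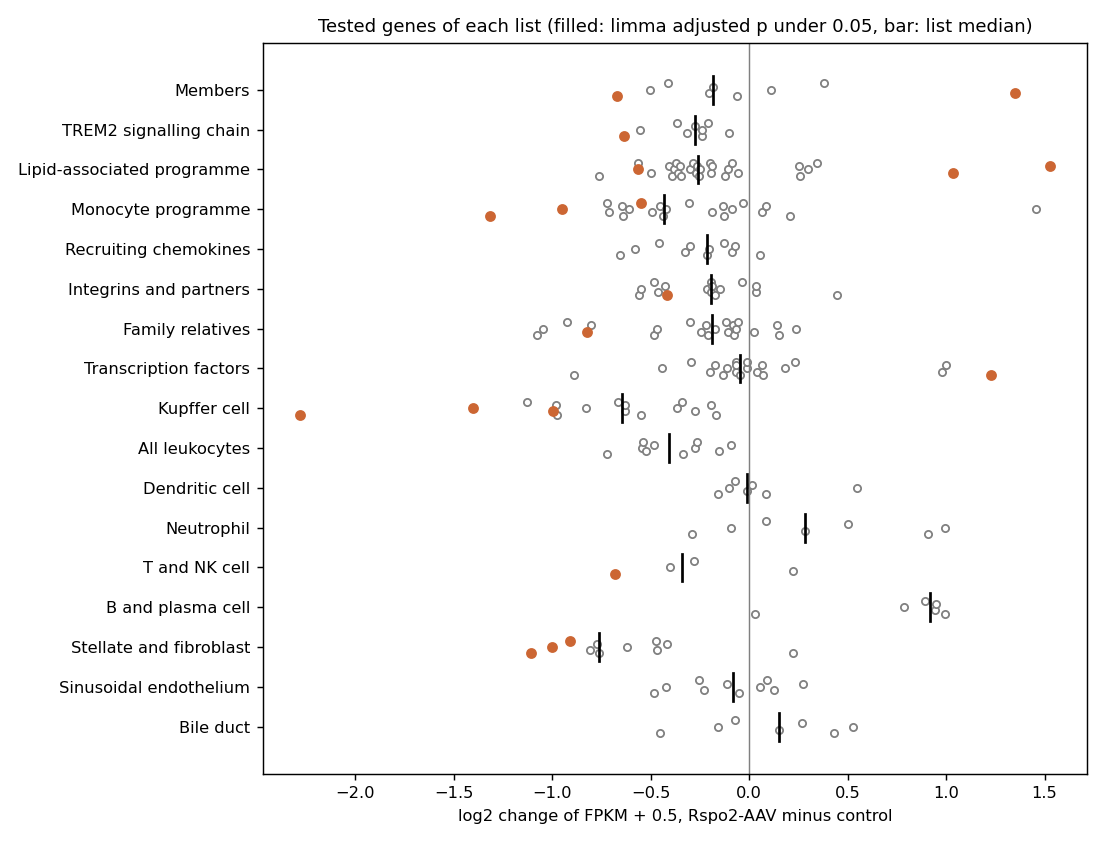
Log2 change of FPKM + 0.5, Rspo2-AAV minus control, of each tested gene in 17 of the gene lists, 1 point per gene, filled where limma's adjusted p was under 0.05, with a bar at the list median. The Kupffer cell points all lie below 0, and the 2 filled points of the 10 followed genes, Trem2 and Fabp5, lie on opposite sides.

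Some markers of resident Kupffer cells were lower in the Rspo2-AAV group, as Trem2 was. Of 16 tested Kupffer cell genes, 0 were called higher and 3 lower, all 16 log2 changes were negative, and the median was -0.65. Of the 16, 11 had an unadjusted limma p under 0.05, where exact permutation gave 20.6% of all tested genes. Marco, a scavenger receptor, fell from 38.2 ± 22.1 to 7.57 ± 4.31 FPKM, Clec4f, a lectin of mouse Kupffer cells, from 103 ± 29.8 to 41.5 ± 22.3 FPKM, and Vsig4, a complement receptor, from 50.3 ± 16.98 to 24.9 ± 7.75 FPKM (SD, 6 libraries each; adjusted p = 0.00864, 0.0177 and 0.0245). The calls were lost in 0, 1 and 6 of 12 fits that left out 1 library, and the number of Kupffer genes called lower ran from 1 (without Rspo2-AAV 6) to 7 (without Rspo2-AAV 1). It was 1 without Rspo2-AAV 4 and 5, 5 with a filter at a mean of 1 FPKM, 7 in numbers 4 to 7 and with the number sets as a term, 11 without control 3 and Rspo2-AAV 1 and 2, and 0 in numbers 1 to 3. Among 11 alternatives other than numbers 1 to 3, Marco kept its call in all, Clec4f lost it in 1 and Vsig4 in 4. The sum of all 17 markers ran from 690 to 1388 FPKM in the controls and from 465.9 to 849 FPKM in the Rspo2-AAV libraries, and no marker was at 0 throughout. The pan-macrophage gene Adgre1 was at 15.2 ± 5.93 and 7.30 ± 2.52 FPKM (adjusted p = 0.0519).

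The part of these Kupffer cell values in the Trem2 result was not tested. Within groups, the Kupffer sum had a Pearson r of 0.49 with Trem2, 0.59 with Lgals3, 0.61 with Itgax, 0.72 with Itgam and 0.55 with Ms4a7 over the 12 libraries, but 0.19 with Cd9, 0.04 with Spp1, -0.0045 with Ccr2, -0.29 with Fabp5 and -0.31 with Gpnmb. These are descriptions without a test. Fabp5 was highest in Rspo2-AAV 5, the library with the lowest Kupffer sum.

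**Figure D5:**
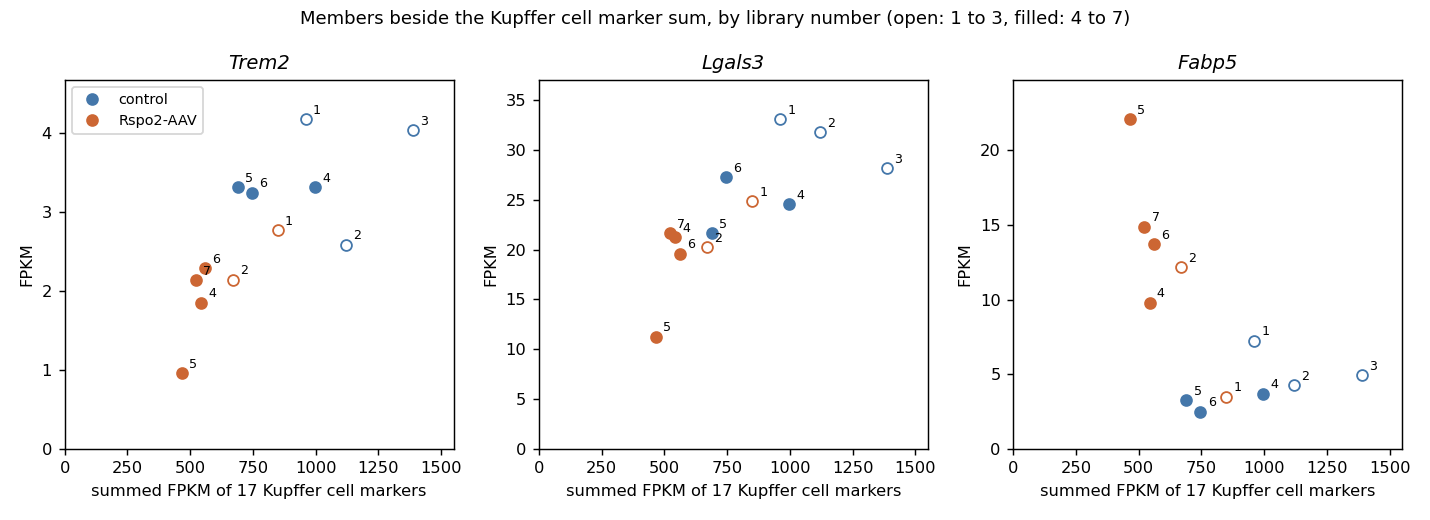
FPKM of Trem2, Lgals3 and Fabp5 against the summed FPKM of 17 Kupffer cell markers in the 12 libraries, labelled by sample number, open for numbers 1 to 3 and filled for 4 to 7. Rspo2-AAV 5 has the lowest Kupffer sum (465.9 FPKM), the lowest Trem2 (0.957 FPKM) and the highest Fabp5 (22.1 FPKM).

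Other cells that could hold these transcripts were followed by their own markers. The list of all leukocytes summed to 83.7 to 140 FPKM in the controls and 71.6 to 119 FPKM in the Rspo2-AAV libraries. Of its 10 genes, 0 were called by limma or limma-voom, 4 had an unadjusted p under 0.05 and all 10 log2 changes were negative. Unadjusted p-values of the lists are from limma. By exact permutation, a different test, 20.6% of all tested genes had an unadjusted p under 0.05. Stellate cell and fibroblast markers had 3 of 11 tested genes lower, Dcn, Lrat and Lum (log2 change -1.0, -1.11 and -0.91, adjusted p = 0.00304, 0.0151 and 0.0330). Of the 11, 10 had an unadjusted p under 0.05. The sums of the list did not overlap between the groups (54.5 to 72.5 and 24.2 to 44.5 FPKM). The call of Lum was lost in 7 of 12 fits that left out 1 library (adjusted p up to 0.0780), and those of Dcn and Lrat in 0. In 11 other alternatives Dcn lost its call in 0, Lrat in 3 and Lum in 5 (highest adjusted p 0.0347, 0.107 and 0.131), and all 3 lost it in numbers 1 to 3. Of the 4 tested T and natural killer cell genes, Gzma was lower (-0.68 ± 0.17, adjusted p = 0.0397), a call lost in 8 of 12 fits that left out 1 library (adjusted p up to 0.0984), in 7 of 10 other alternatives (up to 0.160) and in numbers 1 to 3. By limma, 0 genes were called in the lists of dendritic cells (7 tested), neutrophils (7), platelets (3) and dividing cells (3), where 0 had an unadjusted p under 0.05. The same held for calls in the lists of B and plasma cells, sinusoidal endothelium, adipocytes, hepatocytes and acinar cells, where 4 of 6, 1 of 10, 2 of 3, 3 of 9 and 15 of 16 genes had an unadjusted p under 0.05. Of all these, limma-voom called 1 hepatocyte gene. The genes with an unadjusted p under 0.05 were all higher in the B and plasma cell and acinar lists. In the endothelial, adipocyte and hepatocyte lists 0 of them were higher. Neutrophil sums were highest in control 3 (61.3 FPKM) and Rspo2-AAV 2 (64.8 FPKM), against medians of 11.9 and 11.3 FPKM, and dendritic cell sums overlapped (177 to 423 and 186 to 437 FPKM). The acinar list had a median log2 change of 5.00 with sums up to 61689 FPKM in Rspo2-AAV 4. Their part in the results on the 10 genes was not tested, and the values without Rspo2-AAV 4 and 5 are -0.47 for Trem2 (adjusted p = 0.117) and 1.16 for Fabp5.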

How the data were processed

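Liver RNA of 12 samples was sequenced after poly-A selection. The deposited FPKM values, 1 column per sample, carry the group's first letter and the sample number, which match 1 title each. The submitters' processing notes list, with no role or order, DESeq2 1.20.0, HISAT2 2.0.5 and featureCounts 1.5.0-p3, and the build GRCm38. The labels' protocols do not say which strand setting was used for counting. For all 10 genes, the positions in the deposited table were the same as in GENCODE M21. The deposited gene lengths, in bases, served to recover reads and read shares, and 100% of positive values came out whole within 0.01 reads.

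The test was limma 3.58.1 (R 4.3.3, eBayes with trend) on the log2 of FPKM plus 0.5, for the 13447 genes whose mean over the 12 libraries reached 0.5 FPKM, with Benjamini-Hochberg adjustment over all of them and calls at an adjusted p under 0.05. Such fold changes understate those of low genes. Each of the 10 genes also had an exact two-sided permutation test over 924 splits. Copies were searched with blastn 2.17.0. Recovered reads are PCR reads without molecular identifiers.

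The genes and the 21 other lists were chosen with earlier results of these data known. From each list up to 4 called genes were named by smallest p, and 3 similar genes for each of the 10. Where a companion list had no call its 2 highest-mean genes were named; Tyrobp, Itgb2, Adgre1, Gm6166 and the overlapping genes were named after their values were seen. A symbol on more than 1 row was taken from the row with the higher mean. Alternatives were other pseudocounts, filters, TPM scaling, limma-voom, a replicate block, a term for the numbers and left-out libraries. The replicate block used only numbers present in both groups, without control 3 and Rspo2-AAV 7, so its lost calls also reflect fewer libraries. Numbers 1 to 3 alone and the difference between the number sets were added after the data were seen.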

Additional observations from a re-analysis of the deposited data

Results flagged for a closer look

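In a check of 54 groups of 6 values (the 10 followed genes and the called list genes), 2 held a sample far from the others, where chance gives about 1 in 20. Atp6v0d2 was at 13.5 FPKM in Rspo2-AAV 1, above the other Rspo2-AAV libraries. Vsig4 was at 82.7 FPKM in control 3, above the other controls. None of the 10 followed genes held such a sample in either group.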

How the results depend on the processing

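Over all genes, 343 were called higher and 356 lower. The counts were 195 and 216 with no filter on low values, 197 and 183 with TPM scaling, 145 and 152 with a replicate block, 853 and 931 in numbers 4 to 7 alone, 807 and 908 without control 3 and Rspo2-AAV 1 and 2, 117 and 120 without Rspo2-AAV 4 and 5, and 0 and 0 by limma in numbers 1 to 3 alone, where 955 genes had an unadjusted p under 0.05. Leaving out 1 library gave 162 to 421 higher and 170 to 492 lower. Of the 10 genes, 1 was called higher and 1 lower. The higher and lower counts were 0 and 0 with no filter, with the replicate block, without Rspo2-AAV 4 and 5 and in numbers 1 to 3 alone. The lower count alone was 0 with a pseudocount of 0.1, with TPM scaling, with limma-voom and in numbers 4 to 7, and the higher count alone was 0 with the term for the numbers. Leaving out 1 library gave 0 to 1 in each direction. The log2 changes of Trem2 and Fabp5 kept their sign in every alternative run. The cause of the lost calls was not tested.

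Signs turned only for genes that were not called: Gpnmb with the replicate block (-0.14), in numbers 1 to 3 (-0.10) and without Rspo2-AAV 7 (-0.050, the lowest when 1 library was left out, with 0.388 the highest), Spp1 in numbers 4 to 7 (-0.018), Cd9 in numbers 4 to 7 (0.11) and without Rspo2-AAV 1 (0.056, the highest when 1 library was left out, with -0.187 the lowest), and Itgax and Ms4a7 in numbers 1 to 3 (0.090 and 0.12). The cause was not tested. Whether the numbers shared by both groups (1, 2, 4, 5 and 6) pair the samples cannot be decided from these values. The correlations of their deviations ran from -0.25 to 0.16, and the best match had the same number for controls 2 and 4. Depth limits Itgam most, with 1 to 54 reads per library.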
